A study of Homo sapiens with 6 samples.

Results

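The transcripts described here are those of 10 genes of the MYC and MAX network, MYC, MAX, MXD1, MXD3, MXD4, MXI1, MNT, MGA, MLX and MLXIP. They were taken by name from a table of 22481 genes, and all 10 were in it. Poly(A) RNA of the human osteosarcoma line 143B was sequenced after 24 h with celastrol, a plant triterpene, or after the same 24 h without it. The 6 wells of 1 plate were cultured for 24 h beforehand, 3 were then controls and 3 received celastrol, each well was read as 1 library, and the labels name the compound but give neither its dose nor a vehicle for the controls. The labels do not say that wells came from separate cultures, so the tests use a well-to-well spread that may be technical.

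MAX is a small basic helix-loop-helix leucine zipper protein that binds DNA as a dimer at the E-box CACGTG. Its partners compete for it: MYC recruits coactivators and activates transcription, whereas the MXD proteins (MXD1, MXI1, MXD3 and MXD4) and MNT recruit SIN3 and histone deacetylases and repress, and MGA carries MAX into the polycomb complex PRC1.6. MLX is a second, parallel hub, which pairs with MLXIP (MondoA) and MLXIPL (ChREBP) to follow glucose-derived metabolites and also binds some of the MXD proteins and MNT. MYC is a frequent driver in osteosarcoma and promotes ribosome synthesis and entry into the cell cycle.

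The E-box is the shared DNA site of these proteins, and some of the network's own promoters contain it. RefSeq start-site windows on GRCh38.p14, reaching 250 bases before to 50 bases after the start, were found for 9 of the 10 genes (all but MYC). The letters CACGTG read the same on both strands. They were present in 3 of these 14 windows (21.4%), against 7.26% of all 35116 windows in the table. Per gene, 3 of the 9 members held them, against 12.2% of the 12291 tested genes with a window. The sites lay before the starts of MXD4, MNT and MLX at 238, 193 and 50 bases, and they are shown with 12 bases on each side because these 3 genes are also the ones whose transcripts did not pass the test below. That coincidence was noticed after the values were seen and was not tested. Over all tested genes with a window, CACGTG was present in 11.9% of those not called, 15.0% of those higher and 10.2% of those lower. Capitals mark the E-box, each sequence reads along the gene's own strand, and none overlaps an exon of the GENCODE 29 annotation.
MXD4 (chr4:2262330-2262359, minus strand): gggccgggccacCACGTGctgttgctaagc
MNT (chr17:2401236-2401265, minus strand): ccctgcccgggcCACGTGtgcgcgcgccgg
MLX (chr17:42567038-42567067, plus strand): gcgggcgcgggtCACGTGggcacgccaccc
The windows of MAX, MXD1, MXD3, MXI1, MGA and MLXIP did not contain these letters, which says nothing of sites elsewhere.

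Library totals were 38408143 to 39453778 counts, and no member had fewer than 365 counts in any library. The cells expressed the mesenchymal genes VIM and SPARC, while COL1A2, a collagen gene of osteoblasts, was at or near 0. Epithelial, leukocyte and endothelial markers summed to at most 7.64, 0.683 and 0.675 CPM (counts scaled to the library total) in any library. Of 7 mesenchymal and osteoblast markers tested, 3 were lower with celastrol. These were VIM, the osteoblast factor RUNX2 and ALPL, the last at a low level (log2 fold changes -0.43, -0.90 and -1.18). Another 1 was higher (COL1A1, 0.66), and SPARC was among the 3 not called. The part of these markers in the results below was not tested. Counts are relative to each library's total, so fewer cells and less RNA per cell cannot be told apart from these data.

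With celastrol, MYC fell to less than its lowest control level in every well, the gene for its obligate partner MAX rose, and the repressor genes MXD1, MXI1 and MXD3 fell along with MYC. MGA and MLXIP rose by smaller amounts, and MXD4, MNT and MLX did not pass the test. In all, 3 of the 10 members rose and 4 fell at an adjusted p under 0.05 (quasi-likelihood test of edgeR, adjusted over all genes by Benjamini and Hochberg). Celastrol changed a large part of the transcriptome: 48.4% of the 15387 genes tested were called (23.6% higher and 24.8% lower). The members' 7 calls of 10 (70%) stand against that share, and 1 more or fewer call would move theirs by 10 points. The groups did not overlap in 8 members, against 56.9% of all tested genes. These shares over all genes include genes of low level and were not matched to the level of the members.

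**Figure D1:**
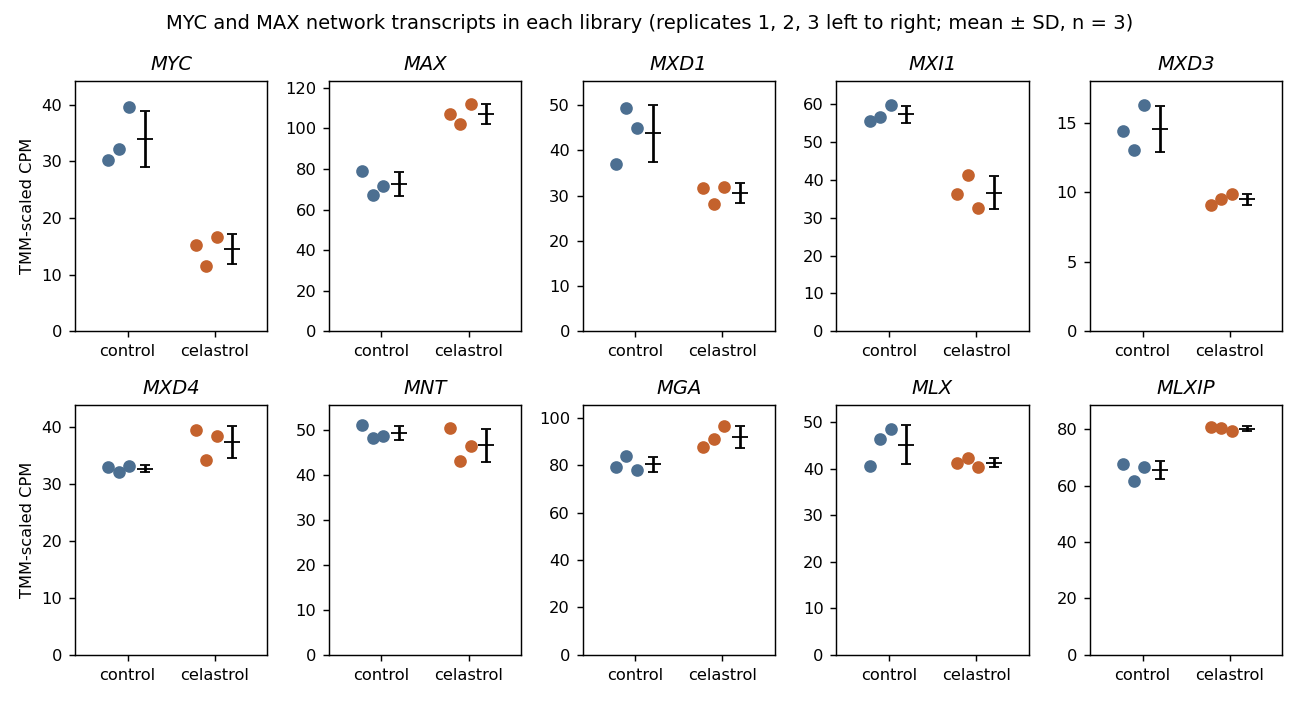
CPM scaled by the trimmed mean of M-values (TMM) for each member (vertical axes from 0), with points for replicates 1, 2 and 3 of the control (blue) and celastrol (orange) wells and black bars for the mean ± SD (n = 3). The groups are apart in every panel except those of MNT and MLX; MYC has the widest gap for its level, with 30.2 to 39.5 CPM in controls and 11.6 to 16.7 CPM with celastrol.

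MYC (NCBI gene 4609, chromosome 8, 127735434 to 127742951) was read at 30.2, 32.1 and 39.5 CPM in control replicates 1, 2 and 3 and at 15.3, 11.6 and 16.7 CPM in celastrol replicates 1, 2 and 3. The highest celastrol well was well under the lowest control well. The fall was 1.22 on the log2 scale (log2 fold change -1.22 ± 0.14 SE, edgeR adjusted p = 1.81e-06). MYC was the only member called with a change of at least 2-fold (6.05% of tested genes were called and at least 2-fold lower, 3.28% at least 2-fold higher), and 4.93% of tested genes had a log2 fold change as low or lower. It passed the test in all 17 alternative analyses, with log2 fold changes from -1.34 to -0.98.

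The MYC paralogs MYCL and MYCN, which also bind MAX, were much less abundant and lower too. MYCL had 7.64, 8.16 and 10.9 CPM in the controls and 2.02, 1.92 and 1.12 CPM with celastrol (log2 fold change -2.40 ± 0.23 SE, edgeR adjusted p = 2.32e-07). MYCN had 47, 27 and 45 counts in the controls and 2, 14 and 5 counts with celastrol, too few for a firm fold, though the test called it lower (edgeR adjusted p = 0.00259). Per length, in the authors' FPKM, MYC made up 77.5% ± 1.03 (SD, n = 3) of the 3 MYC family transcripts in controls and 88.3% ± 4.97 with celastrol. Their summed level was 9.56 ± 1.38 FPKM in controls and 3.68 ± 0.48 FPKM with celastrol.

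MAX (gene 4149, chromosome 14, 65006101 to 65102695) moved the other way. It had 79, 67.2 and 71.6 CPM in the controls and 107, 102 and 112 CPM with celastrol. All 3 celastrol wells were above all 3 controls, and the wells within each group differed little. The log2 fold change was 0.56 ± 0.07 (SE, edgeR adjusted p = 7.07e-06), and 12.7% of tested genes rose by as much or more. MAX was called in all 17 alternatives, with log2 fold changes from 0.51 to 0.66.

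**Figure D2:**
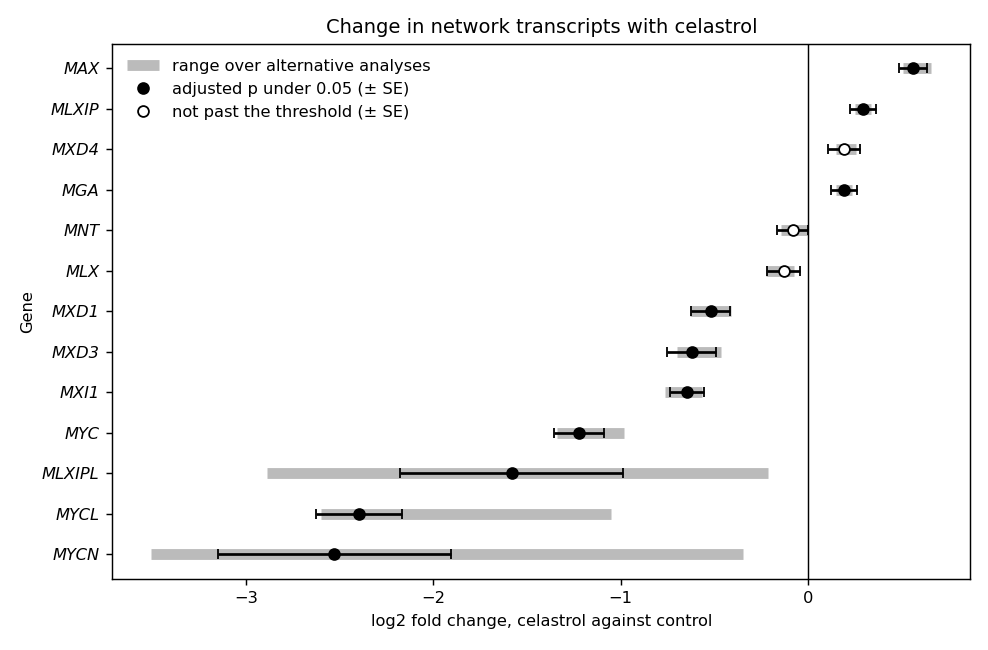
Log2 fold change of celastrol against control for the 10 members and the 3 further network genes (horizontal axis), with the standard error as whiskers, filled points for an adjusted p under 0.05 and grey bars for the range over alternative analyses. MAX is highest at 0.56 and MYC is the lowest member at -1.22; the wide bars of MYCN, MYCL and MLXIPL reach toward 0 where 1 FPKM is added to their low values before the logarithm.

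Among the 4 MXD repressor genes, 3 fell and MXD4 did not pass the test. MXI1 (gene 4601, chromosome 10, 110207605 to 110287365), whose protein antagonizes MYC and is also known as MXD2, had 55.6, 56.7 and 59.9 CPM in the controls and 36.2, 41.3 and 32.5 CPM with celastrol. It was the most abundant MXD transcript in controls and its groups did not overlap (log2 fold change -0.65 ± 0.09 SE, edgeR adjusted p = 1.38e-05). MXD1 (gene 4084, chromosome 2, 69915109 to 69942945), classically induced as cells differentiate, had 37, 49.5 and 45 CPM in the controls and 31.7, 28.1 and 32 CPM with celastrol (-0.52 ± 0.10, edgeR adjusted p = 0.00051). Control replicate 1 lay nearest the celastrol wells, and the groups still did not overlap.

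MXD3 (gene 83463, chromosome 5, 177305499 to 177312752), the MXD family member tied to S phase and proliferating cells, had 14.4, 13 and 16.3 CPM in the controls and 9.09, 9.49 and 9.87 CPM with celastrol (-0.62 ± 0.13, edgeR adjusted p = 0.00083). Its value is uncertain because GENCODE exons of PRELID1 on the opposite strand cover 22.5% of its exon bases and those of RAB24 on the same strand 18%. PRELID1 was at 199 CPM in controls and 232 CPM with celastrol, far above MXD3, and the sources used here do not state whether counting used the strand. MXD4 (gene 10608, chromosome 4, 2247432 to 2262109) had 32.9, 32 and 33.1 CPM in the controls and 39.5, 34.1 and 38.4 CPM with celastrol. The celastrol wells were all higher, but the difference did not pass the test (0.19 ± 0.09, edgeR adjusted p = 0.0794). It did pass with library size as the only scaling (adjusted p = 0.0353) and without celastrol replicate 2 (adjusted p = 0.0445), in a range of 0.0207 to 0.286 over 17 alternatives.

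The repressor MNT (gene 4335, chromosome 17, 2384073 to 2401060), a broadly expressed MYC antagonist, had 51.2, 48.3 and 48.7 CPM in the controls and 50.5, 43.1 and 46.6 CPM with celastrol. These ranges overlapped (log2 fold change -0.08 ± 0.08 SE, edgeR adjusted p = 0.44), and no alternative called it. GENCODE exons of AC006435.1 on the opposite strand cover 12.2% of the exon bases of MNT. The part of AC006435.1 in the MNT value was not tested. MGA (gene 23269, chromosome 15, 41621224 to 41769940), a large scaffold protein with a T-box as well as a MAX-binding domain, had 79.4, 83.7 and 77.9 CPM in the controls and 87.6, 91.2 and 96.7 CPM with celastrol. It was higher in each celastrol well, by a small margin (0.19 ± 0.07, edgeR adjusted p = 0.0272). It no longer passed with control replicate 3 (adjusted p = 0.0815), celastrol replicate 3 (0.155) or celastrol replicate 2 (0.0544) left out, or with upper quartile scaling (0.053), in a range of 0.00902 to 0.155 over 17 alternatives.

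On the parallel MLX branch, MLXIP rose while MLX did not pass the test. MLXIP (gene 22877, chromosome 12, 122078756 to 122147344), the glucose-sensing factor MondoA, had 67.8, 61.7 and 66.7 CPM in the controls and 80.9, 80.5 and 79.2 CPM with celastrol. The 3 celastrol wells were nearly level and above every control (0.30 ± 0.07, edgeR adjusted p = 0.00197). MLX (gene 6945, chromosome 17, 42567100 to 42573203) had 40.6, 46.5 and 48.6 CPM in the controls and 41.2, 42.4 and 40.5 CPM with celastrol. Control replicate 1 lay among the celastrol wells (-0.13 ± 0.09, edgeR adjusted p = 0.225). Without control replicate 1 MLX was called lower (adjusted p = 0.0338). Exons of PSMC3IP on the opposite strand cover 18.1% of the exon bases of MLX, and PSMC3IP went from 24.7 to 43.7 CPM; its part in the MLX value was not tested.

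MLXIPL, the ChREBP gene of liver and fat, was barely detected, with 24, 62 and 39 counts in the controls and 6, 29 and 8 counts with celastrol. It was called lower (edgeR adjusted p = 0.0362) although the groups overlapped. It no longer passed with celastrol replicate 1 (adjusted p = 0.136), celastrol replicate 3 (0.128), control replicate 2 (0.2) or control replicate 3 (0.0761) left out, or on log2(FPKM + 1) (0.0623). Per length, MLXIPL stood at 0.26 ± 0.12 FPKM in controls, against 7.42 ± 0.36 FPKM for MLXIP.

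Levels of different genes were compared in the authors' FPKM, which are per length. In controls MAX was the most abundant member at 22.3 ± 1.89 FPKM, followed by MLX at 17.7 ± 1.52 and MXI1 at 14.7 ± 0.47, and these 3 did not overlap each other. MXD4 (8.32 ± 0.13), MXD1 (7.79 ± 1.12), MLXIP (7.42 ± 0.36) and MYC (7.401 ± 1.01) formed a group whose neighbours overlapped. MGA (6.27 ± 0.27), MNT (5.30 ± 0.19) and MXD3 (5.16 ± 0.55) came last. With celastrol the ends of the order were MAX at 33.9 ± 1.48 FPKM and MYC at 3.27 ± 0.59 FPKM. MYC overlapped MXD3 (3.45 ± 0.13 FPKM) in that group, and MXD4 (9.79 ± 0.74 FPKM) overlapped MXI1 (9.68 ± 1.2 FPKM).

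These shifts changed the make-up of the RNA for the 7 MAX partners among the members. The measure is taken within each library and does not depend on scaling between libraries. MYCL (1.81 FPKM in controls, 0.35 with celastrol) and MYCN (0.35 and 0.061), which also bind MAX, were left out of the sum. MYC accounted for 12.5%, 12.8% and 15% of summed partner FPKM in control replicates 1, 2 and 3 and for 7.64%, 6.04% and 8.4% in celastrol replicates 1, 2 and 3. The mean share was 13.4% ± 1.35 in controls and 7.36% ± 1.21 with celastrol (SD, n = 3), and no celastrol well reached the lowest control. The 4 MXD genes together made up 65.5% ± 0.34 in controls and 64.4% ± 1.59 with celastrol, with ranges that overlapped. Within the family the shares shifted: MXD4 was 23.1% ± 1.1 of MXD family FPKM in controls and 34.3% ± 2.48 with celastrol, and MXI1 40.9% ± 0.62 and 33.9% ± 4.0. MXI1 was still above MXD4 in celastrol replicate 2 (38.3% and 31.5%), and below it in the other 2 celastrol wells. MGA made up 11.4% ± 0.74 of partner FPKM in controls and 16.6% ± 0.92 with celastrol.

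MAX RNA stood at 0.407 ± 0.047 of the summed FPKM of the same partners in controls (0.462, 0.377 and 0.383). With celastrol it stood at 0.765 ± 0.024 (0.754, 0.748 and 0.792). The sum itself was 54.9 ± 2.08 FPKM in controls and 44.3 ± 1.04 FPKM with celastrol. The ratio of MAX to MYC was 3.68, 2.95 and 2.55 in the controls and 9.87, 12.4 and 9.43 with celastrol. In each of these measures the groups lay apart. On the MLX branch the ratio of MLXIP to MLX was 0.423 ± 0.054 in controls and 0.563 ± 0.010 with celastrol. These are ratios of RNA, and protein amounts were not measured.

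**Figure D3:**
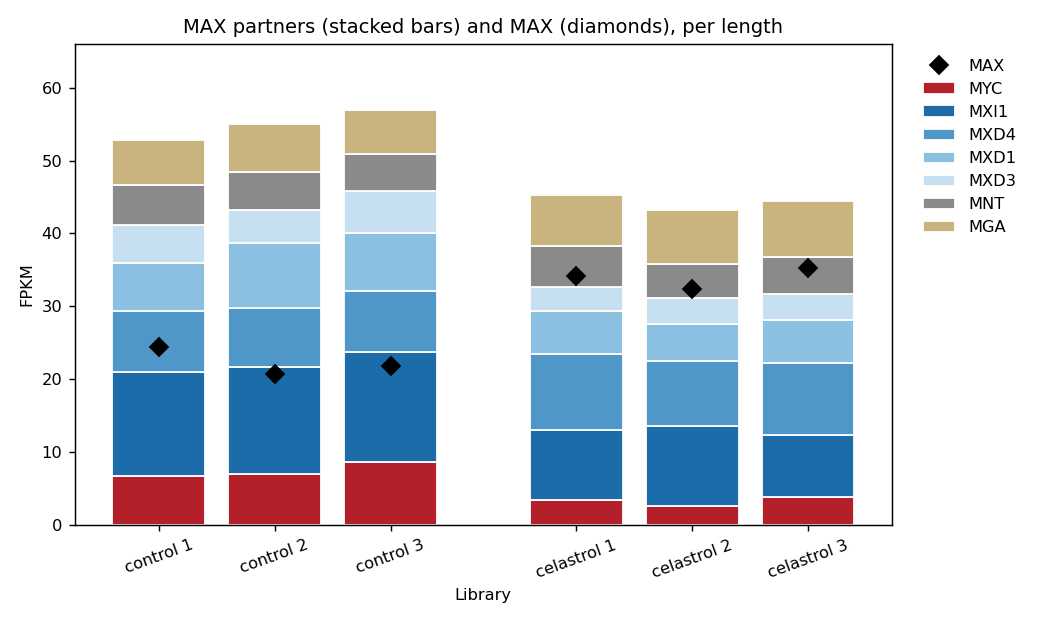
Stacked bars give the FPKM of the 7 MAX partner genes in each library (vertical axis from 0), and diamonds the FPKM of MAX in the same library. The diamonds stand higher in the celastrol wells, where the bars are shorter and the red MYC segment falls from 6.63 to 8.55 FPKM in controls to 2.61 to 3.74 FPKM.

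The transcripts whose profile over the 6 libraries was closest to that of MYC were sought among 8627 tested genes whose mean log2 CPM reached 4. Genes with LOC, LINC, clone, antisense (-AS) or similar (-DT, -IT, -OT) names were left out beforehand. Likeness was measured by the root mean square difference of log2 CPM centred on each gene's mean. The nearest were BCAM, an adhesion molecule that binds laminin (0.127 log2 units), PDGFA, a growth factor subunit (0.143), and BNC1, a zinc finger protein of epithelial and germ cells (0.149). PODXL, a cell-surface sialomucin (0.153), and AFAP1, an actin filament crosslinker (0.159), came next. The median gene differed from MYC by 0.662. The 5 genes had log2 fold changes of -1.32, -1.14, -1.07, -1.29 and -1.21. All 6 libraries enter the measure, so it mainly reads the difference between groups.

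**Figure D4:**
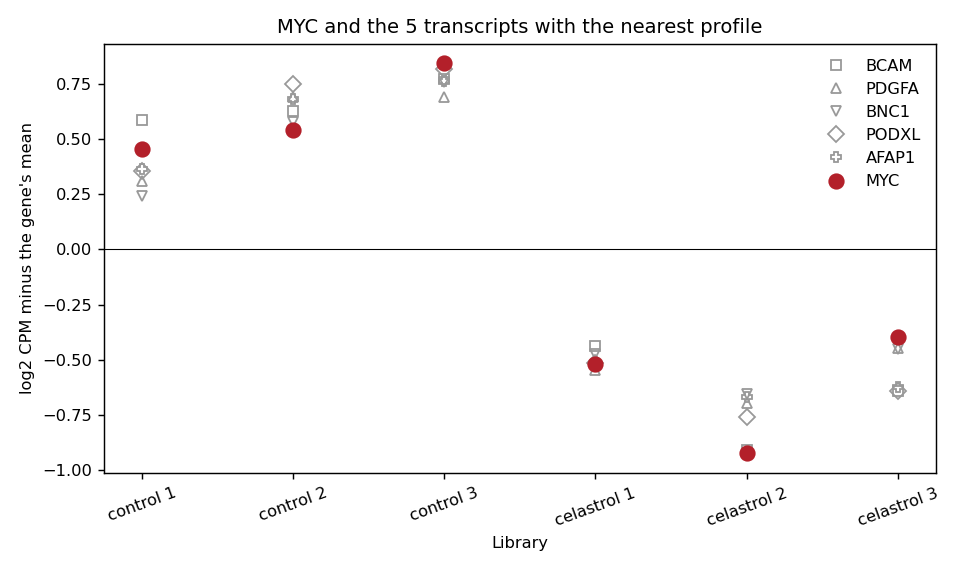
Log2 CPM of MYC (red) and its 5 nearest transcripts among the genes searched (grey) in each library, minus the gene's own mean over the 6 libraries. All lie above 0 in the controls and below 0 with celastrol; the genes were chosen for this likeness.

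Cofactors of the network were read from lists chosen by function. For these lists and the target lists below, the shares over all tested genes include genes of low level and were not matched for level. Of 16 coactivators and partners of MYC, 6 rose and 0 fell by edgeR (also 0 before adjustment, and 0 with DESeq2 and with limma-voom), with a median log2 fold change of 0.12 against 0 for all tested genes. HCFC1, a host cell factor that binds MYC and chromatin complexes, rose most, from 162 ± 18.3 to 236.2 ± 10.5 CPM (0.54 ± 0.07, edgeR adjusted p = 9.96e-06). SMARCB1, a core subunit of SWI/SNF remodellers (0.38 ± 0.07, edgeR adjusted p = 0.000153), and WDR5, which tethers MYC to chromatin (0.31 ± 0.07, edgeR adjusted p = 0.00102), rose as well. The 6 calls of 16 are 37.5%, against 48.4% of all tested genes called in either direction, 23.6% called higher and 24.8% called lower.

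Among 13 genes that govern MYC protein turnover, 4 rose and 3 fell, and the 53.8% called is near the 48.4% of all tested genes. CIP2A, an inhibitor of the phosphatase PP2A that stabilizes MYC, rose from 47.36 ± 5.49 to 70.42 ± 1.9 CPM (0.57 ± 0.09, edgeR adjusted p = 2.49e-05). PPP2R5A, a PP2A subunit that directs the phosphatase to MYC, fell from 21.08 ± 3.21 to 10.29 ± 0.85 CPM (-1.03 ± 0.13, edgeR adjusted p = 5.5e-06). The deubiquitinase gene USP36 (-0.40) and GSK3B, the kinase that marks MYC for degradation (-0.28), fell, and the SUMO protease gene SENP1 (0.33) and the ubiquitin ligase gene STUB1 (0.26) rose. FBXW7, which encodes the ligase that reads the GSK3B mark, was at 21.44 ± 1.72 CPM in controls and 19.49 ± 1.72 CPM with celastrol (edgeR adjusted p = 0.32). STUB1 did not pass with control replicate 2 (adjusted p = 0.141), celastrol replicate 1 (0.0868) or celastrol replicate 3 (0.1) left out, and 2 turnover genes were higher in each of those cases. With control replicate 1 left out, 5 were lower.

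Of 15 genes that act on the transcription or the mRNA of MYC, 5 rose and 2 fell, and the 46.7% called is near the 48.4% of all tested genes. PVT1, the noncoding RNA gene next to MYC on chromosome 8, fell with it, from 23.16 ± 2.75 to 14.66 ± 0.73 CPM (-0.66 ± 0.12, edgeR adjusted p = 0.000141). The mRNA-binding gene IGF2BP2 fell too (-0.33), whereas its relatives IGF2BP1 (0.47) and IGF2BP3 (0.36) rose. FUBP1, a protein that binds single-stranded DNA upstream of MYC, rose from 146.3 ± 5.85 to 209.5 ± 10.8 CPM (0.52 ± 0.06, edgeR adjusted p = 3.06e-06).

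Of the 17 genes of the SIN3 and histone deacetylase complex, through which MXD proteins and MNT repress, 7 rose and 3 fell (median 0.14). That is 58.8% called and 41.2% higher, against 48.4% and 23.6% of all tested genes, of which 24.8% were lower. The complex's paralogs BRMS1L (0.93 ± 0.13, edgeR adjusted p = 1.52e-05) and SAP30L (0.71 ± 0.09, edgeR adjusted p = 4.65e-06) rose most, and HDAC1 went from 84.19 ± 3.50 to 129.8 ± 1.05 CPM (0.63 ± 0.06, edgeR adjusted p = 4.31e-07). The scaffolds SIN3A (0.14, edgeR adjusted p = 0.0579) and SIN3B (-0.13, edgeR adjusted p = 0.191) did not pass. SAP130 (-0.41), ING2 (-0.33) and ING1 (-0.32) were called lower. ING1 did not pass with celastrol replicate 3 (adjusted p = 0.147) or control replicate 2 (0.142) left out, and ING2 with any 1 library other than control replicate 1 left out (0.064 to 0.147). Neither passed with library size as the only scaling (0.0519 and 0.0702), nor ING1 on log2 FPKM with 1 or 0.1 added (0.0905 and 0.0901), nor ING2 with no filter on low counts (0.0515). With library size as the only scaling, or without celastrol replicate 3 or control replicate 2, 1 gene of the complex was lower.

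In PRC1.6, the repressive complex that MGA joins, 6 of 10 genes rose and 1 fell (median 0.18). That is 70% called against 48.4% and 60% higher against 23.6% of all tested genes, of which 24.8% were lower. L3MBTL2, a reader of methylated histones, rose from 14.94 ± 0.73 to 25.46 ± 2.53 CPM (0.77 ± 0.11, edgeR adjusted p = 1.79e-05), and TFDP1, the E2F dimer partner, from 138.4 ± 11.7 to 211 ± 11.6 CPM (0.61 ± 0.07, edgeR adjusted p = 1.57e-06). E2F6, the DNA-binding repressor of the complex, rose by less (0.42 ± 0.11, edgeR adjusted p = 0.00405). CBX3, which is counted in the MYC-induced list below as well, and TFDP2 were also among the 6. CBX3 (0.165, edgeR adjusted p = 0.0429) had overlapping groups and passed in 11 of 17 alternatives. TFDP2 (0.199, edgeR adjusted p = 0.0214) passed in 12 of 17. The ubiquitin ligase gene RNF2 was called lower (-0.31 ± 0.10, edgeR adjusted p = 0.0119). It did not pass with celastrol replicate 3 (adjusted p = 0.0644) or control replicate 3 (0.0567) left out, when 5 genes were higher. With celastrol replicate 1, celastrol replicate 2 or control replicate 2 left out, 4 genes of the complex were higher. PCGF6, the subunit that defines the complex, was at 29.67 ± 2.29 CPM in controls and 28.84 ± 2.16 CPM with celastrol (edgeR adjusted p = 0.756).

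Genes that MYC is known to induce were more often higher than lower. Of 57 genes of the second hallmark MYC target set, without MYC itself, 31 rose and 3 fell, and their median log2 fold change was 0.20 (0.24 with library size as the only scaling, where 33 rose and 2 fell). Those called lie at 59.6%, against 48.4% of all genes, and 54.4% were higher against 23.6%. Of all tested genes, 24.8% were lower. The largest rises were in PPAN, a ribosome assembly factor at a low level of 3.68 CPM in controls (0.78 ± 0.21, edgeR adjusted p = 0.00448), UNG, which removes uracil from DNA (0.73 ± 0.08, edgeR adjusted p = 1.01e-06), and CDK4, the G1 kinase, which went from 170.2 ± 17.1 to 262.8 ± 16 CPM (0.63 ± 0.07, edgeR adjusted p = 1.88e-06). The nucleolar gene NPM1 rose from 1132 ± 46.5 to 1329 ± 55.9 CPM (0.23 ± 0.05). The genes that fell were HK2, a hexokinase (-0.55 ± 0.07, edgeR adjusted p = 3.63e-06), TBRG4, a regulator of mitochondrial RNA (-0.28), and RCL1, a ribosome biogenesis factor (-0.24, edgeR adjusted p = 0.0297). RCL1 did not pass with any 1 celastrol replicate (adjusted p = 0.0614 to 0.0848) or control replicate 2 (0.225) left out, with library size as the only scaling (0.0693), or on log2 FPKM with 1 or 0.1 added (0.103 and 0.0992).

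Of 11 tested genes that MYC is known to repress, 5 fell and 2 rose (median -0.48). Of all tested genes 24.8% were lower and 23.6% higher, and 63.6% of the list was called against 48.4%. NDRG1, a stress and differentiation gene, fell from 255.5 ± 8.05 to 116 ± 11.1 CPM (-1.14 ± 0.07, edgeR adjusted p = 1.72e-09), and CDKN1A, the cyclin-dependent kinase inhibitor p21, from 181.2 ± 13.1 to 106.5 ± 4.52 CPM (-0.77 ± 0.07, edgeR adjusted p = 9.08e-08). ITGA6, a laminin receptor subunit, fell as well (-0.62 ± 0.08). THBS1, an antiangiogenic matrix protein, rose from 138.6 ± 13.6 to 239.3 ± 34.6 CPM (0.79 ± 0.10, edgeR adjusted p = 4.13e-05), and COL1A1 rose at a low level (0.66 ± 0.16, edgeR adjusted p = 0.00209). All of these genes answer to other factors as well, and the lists do not separate MYC from them.

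The targets of MLXIP and MLXIPL went both ways, 3 higher and 4 lower of 10 tested, 70% called against 48.4% of all tested genes (median -0.01, or 0.03 with library size as the only scaling). TXNIP, a well-known MondoA target and an inhibitor of glucose uptake, was at 84.99 ± 7.45 CPM in controls and 90.06 ± 17.1 CPM with celastrol (edgeR adjusted p = 0.618), and its relative ARRDC4 at 6.35 ± 0.92 and 6.93 ± 0.38 CPM (edgeR adjusted p = 0.56). KLF10 (0.52 ± 0.08), the malic enzyme gene ME1 (0.39 ± 0.11) and the fatty acid elongase gene ELOVL6 (0.25 ± 0.07) rose. FASN, fatty acid synthase, fell from 1125 ± 115 to 610.1 ± 24.8 CPM (-0.88 ± 0.07, edgeR adjusted p = 2.26e-08), HK2, in this list as well, is given above, and ACACA, acetyl-CoA carboxylase, fell slightly (-0.21 ± 0.06). ELOVL6 did not pass with celastrol replicate 2 (adjusted p = 0.0557) or control replicate 3 (0.055) left out, nor ACACA with celastrol replicate 1 left out (0.0755) or on log2 FPKM with 1 or 0.1 added (0.0772 and 0.0766).

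**Figure D5:**
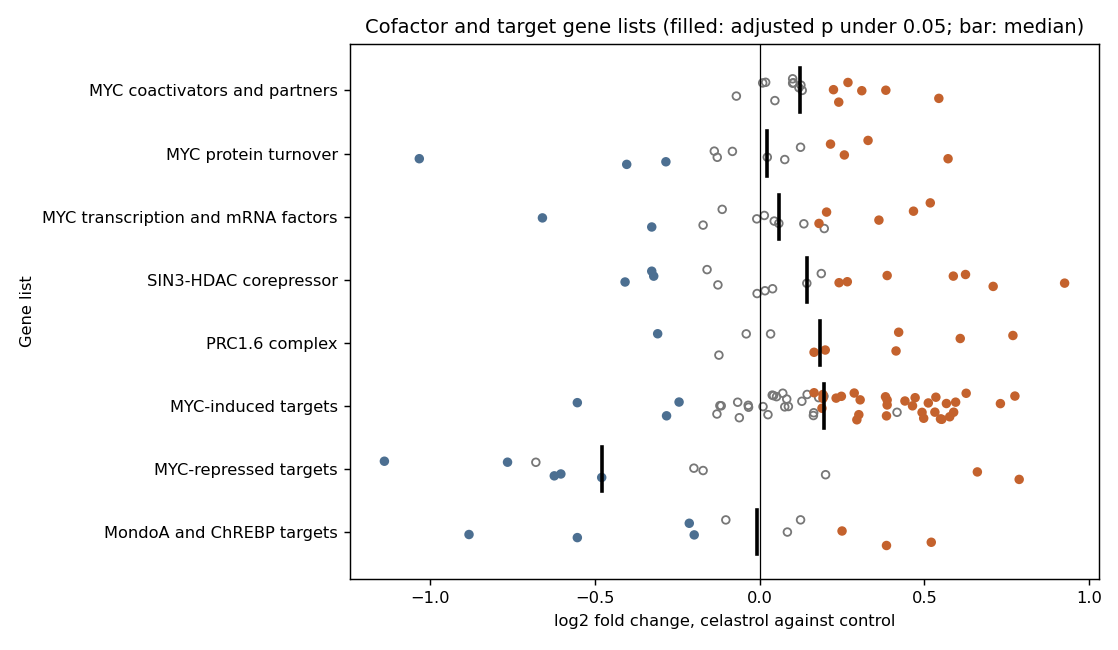
Each point is 1 gene's log2 fold change with celastrol (horizontal axis) in 8 lists of network cofactors and targets (rows); filled points passed an adjusted p under 0.05 (orange higher, blue lower), open points did not, and black bars are medians. The MYC-induced targets have their median at 0.20 and the MYC-repressed targets at -0.48.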

How the data were processed

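Poly(A) RNA was sequenced from 3 celastrol and 3 control wells of 143B cells. The submitters' processing notes name StringTie 2.1.6, HISAT2 2.2.1, cutadapt 1.9, edgeR and DESeq2, with hg38; the sources used here do not give their roles, the annotation or the strand setting. The authors deposited raw read counts per gene and FPKM, which they scaled by gene length and library total. Of 22481 genes, filterByExpr left 15387, which were TMM-scaled and tested with edgeR 4.0.16 (quasi-likelihood, robust, Benjamini-Hochberg over all tested genes, R 4.3.3), after the script was tested on simulated data. The SE is the absolute log2 fold change over the square root of F. Alternatives used DESeq2 1.42.0 and limma 3.58.1, other scalings and filters, log2 FPKM with 1 or 0.1 added, a replicate block and left-out libraries.

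Coordinates are from RefSeq (GRCh38.p14), matched by NCBI gene ID. A count of 0 allows up to 3 counts, 0.076 to 0.0781 CPM before TMM scaling, for counting error only. The members and lists were chosen with earlier results of these data known; the lists were written from general knowledge. Named are all members, MYCN, MYCL and MLXIPL, the 3 largest called changes per list and direction at a log2 CPM of at least 2, and the 5 profiles nearest MYC; other list genes were named after their values were seen.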

Additional observations from a re-analysis of the deposited data

How the results depend on the processing

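MYC, MAX, MXD1, MXD3, MXI1 and MLXIP kept their direction and their call in all 17 alternatives. MXD4 passed the test with library size alone (log2 fold change 0.24), by limma on log2(FPKM + 1) (0.21) and log2(FPKM + 0.1) (0.23), and without celastrol replicate 2 and control replicate 1 together (0.26); leaving out 1 library gave 0.15 to 0.25. MGA did not pass with upper quartile scaling (0.17), and leaving out 1 library gave 0.15 to 0.22. Without celastrol replicate 2 and control replicate 1 together, the only pair left out, MLX passed (-0.22) and MNT, not called in any analysis, turned to 0.001. Control replicate 1 lay among the celastrol wells for MLX, so its removal widens the gap there. Leaving out 1 library gave -0.20 to -0.075 for MLX and -0.14 to -0.025 for MNT. That pair left out, 11 MYC turnover genes were called in place of 7 (5 to 10 with 1 library left out). The cause of these shifts was not tested. Over all genes, 2932 to 4043 were higher and 3145 to 4067 lower with 1 library left out. With library size alone 4170 were higher and 3382 lower, against 3634 and 3815.

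The replicate numbers are not said to pair the wells: same-numbered wells deviated together only weakly (correlations of 0.0582, 0.0549 and 0.0341 across genes), though each correlated best with its own number. With the replicate block, 3831 genes were higher and 3928 lower, and no member's call changed (MYC -1.23, MAX 0.56). The difference in the MYC share of partner RNA, -6.08 percentage points, was -5.42 from CPM and -6.34 without MGA. With 3 wells against 3 the number of wells limits precision, and an exact permutation test could not go below 0.1.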

Other observations

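The E-box was more common at the starts of the MYC-induced targets than at starts in general. CACGTG was present in 25 of the 61 RefSeq windows of the list (41%), which cover 47 of its 57 genes, against 7.26% of all windows. Among targets with a window, 14 of the 25 that rose with celastrol held it (56%), and so did 11 of the other 22 (50%). By the same count per gene, 12.2% of all tested genes with a window held it, and 15.0% of those called higher. In the MYC-repressed list 1 of 14 windows held it (7.14%). These are descriptions of sequence, with no test, and a match is not evidence of binding in these cells.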
